A study of Danio rerio with 6 samples.

Results

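The Notch pathway genes of zebrafish were compared between 3 pikfyve-delta8 mutant samples and 3 wild-type samples. The mutants carried on both chromosomes a CRISPR/Cas9 allele said to lack the lipid kinase domain of Pikfyve. They comprise 40 of the 25645 genes in the deposited table, taken by symbol: 9 ligand genes (dla, dlb, dlc, dld, dll4 and the jag1 and jag2 genes), 4 receptor genes (notch1a, notch1b, notch2, notch3), the nuclear complex genes rbpja, rbpjb and maml1, the trafficking regulators mib1 and numb, 19 her genes and 3 hey genes. The labels give the genotype but no tissue, age, strain or pooling of animals. Nothing states that replicates are different animals or clutches, so the p-values rest on the spread among these 6 libraries, which may be technical.

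Notch is a receptor on the cell surface that is activated by Delta or Jagged ligands on neighbouring cells. Ligand endocytosis, promoted by the ubiquitin ligase Mib1, and cleavage by ADAM proteases and gamma-secretase release the Notch intracellular domain, which enters the nucleus and joins Rbpj and Mastermind to switch on her and hey genes. These encode bHLH repressors that in the zebrafish nervous system keep progenitors from becoming neurons, and in the early embryo run the segmentation clock. Pikfyve acts on late endosomes and lysosomes, the membranes through which Notch receptors and ligands also pass.

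Each sample held 14677252 to 14949605 estimated counts, and 1 count was worth 0.0635 to 0.0728 CPM, which are counts brought to a common library size by TMM. Of 21104 genes tested, 48% passed an adjusted p under 0.05 in edgeR's quasi-likelihood test (Benjamini-Hochberg), 25.1% higher and 23% lower in the mutants. With library size alone in place of TMM 18.1% were higher and 31.1% lower, with upper-quartile factors 22% and 26.5%, and for library size alone the log2 fold change had a median over all genes of -0.14, against 0.0039 with TMM. Mutant samples were less alike than wild-type samples: over genes, which are no independent replicates, log2 CPM correlated at r = 0.975 to 0.980 among mutants and 0.991 to 0.992 among wild-type samples. The pikfyve transcript itself was at 61.2, 63.2 and 73.6 CPM in mutants and 56.6, 53.8 and 52.1 CPM in wild type, but such a total over the gene says nothing about the edited site and so does not check the labels.

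Of the 40 genes 35 had enough reads to be tested, and 15 of them fell in the mutants while 0 rose. The share that fell was 42.9%, against 23% of all genes tested, and the share past the test in either direction was also 42.9%, against 48% of all genes. The lowered genes were the Delta genes dla, dlb and dld, the Jagged gene jag1b, the receptor gene notch3, the Notch antagonist gene numb, 8 her genes and hey1. Of these her genes 4 are her4 copies and 2 are her15 copies. Copies share reads, so in the counts of this paragraph they are not separate observations. At an unadjusted p under 0.05 edgeR had 16 lower and 2 higher, the higher ones being maml1 and her8.2. The share of all genes at that unadjusted cutoff is not given, so these counts cannot be set against it. DESeq2 kept low genes, 25620 in all with the 40 pathway genes among them, and called 14 of the 40 lower, against 16.5%. With limma-voom, over the same 21104 genes as edgeR, 16 of the 35 were lower, against 24%. Both called 0 higher, against 18% and 24.9% of the genes in each. Without pikfyve-delta8 replicate 3 dlc and her8.2 were called higher, as were 25.7% of all genes, and without wild type replicate 2 her8.2 was, as were 19.6%. All 3 mutants lay below all 3 wild-type samples for 16 of the 35 genes, against 28.7% of all genes tested, and above them for 3 genes, against 30.1%. The log2 fold change had a median of -0.18 over the 35, against 0.0039 over all genes. In such bulk samples fewer cells of a type and less RNA per cell cannot be told apart.

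**Figure D1:**
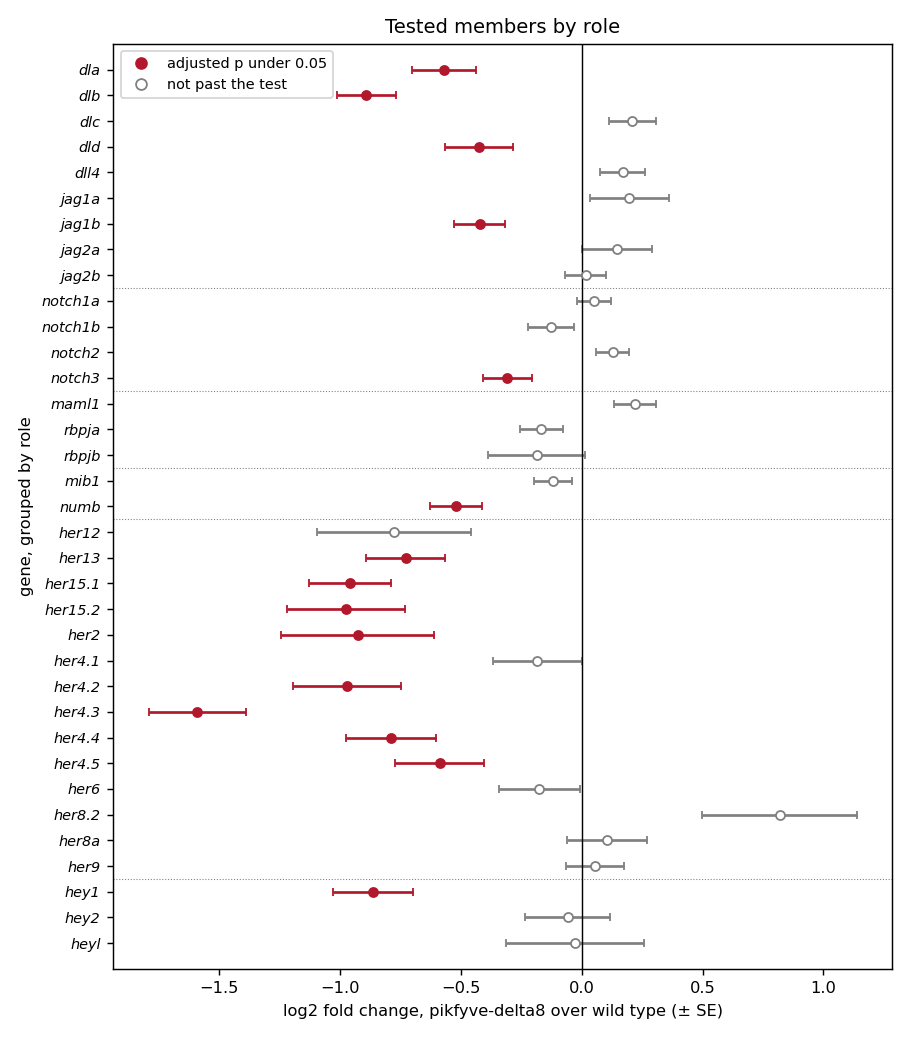
Log2 fold change of each tested gene, pikfyve-delta8 over wild type, with its SE as a bar (n = 3 per genotype), grouped from top to bottom as ligands, receptors, nuclear complex, trafficking regulators, her genes and hey genes. The 15 filled points, all left of 0, passed an adjusted p under 0.05, and the lowest is her4.3 at -1.59.

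Of the 9 ligand genes 4 fell (44.4%, against 23% of all genes tested), 3 of them Delta genes. Their products present the signal to neighbouring cells, and dla, dlb and dld are known in zebrafish from nascent neurons. The gene dlb (Gene ID 30141) stood at 12.1, 9.83 and 10.1 CPM in mutants, against 19.95, 18.1 and 21.6 CPM in wild type. It fell by 0.89 ± 0.12 on the log2 scale (edgeR adjusted p = 0.000291), every mutant lying well under every wild-type sample. For dla (Gene ID 30131) the mutants had 19.0, 13.2 and 15.07 CPM and the wild-type samples 22.9, 23.2 and 24.1 CPM. Its log2 fold change was -0.57 ± 0.13 (adjusted p = 0.00571), and the mutants were spread more widely than the wild-type samples. The gene dld (Gene ID 30138) had 10.5, 9.39 and 7.47 CPM in mutants and 12.8, 11.7 and 12.1 CPM in wild type, without overlap. Its log2 fold change was -0.42 ± 0.14 (adjusted p = 0.0299), a call lost with DESeq2 (0.0583) and without any single wild-type sample (replicate 1, 0.106; replicate 2, 0.0667; replicate 3, 0.0806), in a range of 0.00665 to 0.106 over all alternatives.

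The fourth Delta gene of this group, dlc, did not pass the test. It stood at 46.5, 52.1 and 40.3 CPM in mutants and 41.0, 38.9 and 40.2 CPM in wild type, a log2 fold change of 0.21 ± 0.10 (edgeR adjusted p = 0.102), with the lowest mutant inside the wild-type range. Without pikfyve-delta8 replicate 3 that became 0.29 (adjusted p = 0.0103). The gene dll4, whose product guides arterial and sprouting vessels, had 23.5, 21.0 and 22.8 CPM in mutants and 19.4, 20.7 and 19.7 CPM in wild type. The groups did not overlap, but the log2 fold change of 0.17 ± 0.09 missed the threshold (adjusted p = 0.158).

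Of the Jagged genes jag1b (Gene ID 140423), known in zebrafish for patterning the facial skeleton, fell. Its levels were 23.8, 19.4 and 24.5 CPM in mutants, against 31.1, 30.6 and 29.2 CPM in wild type, with a log2 fold change of -0.42 ± 0.10 (edgeR adjusted p = 0.00772). The groups were clearly apart. The other Jagged genes did not pass, with log2 fold changes of 0.20 ± 0.16 for jag1a, 0.15 ± 0.15 for jag2a and 0.02 ± 0.08 for jag2b (adjusted p = 0.348, 0.432 and 0.887). Summed per length, the 9 ligand genes came to 50.6, 47.8 and 51.1 TPM in mutants and 62.4, 58.7 and 63.1 TPM in wild type. These TPM levels are without TMM scaling, which bears on the difference between genotypes. The ligand with the highest level per length was dlc in both genotypes, at 15.5 ± 1.3 TPM in mutants and 15.12 ± 0.706 TPM in wild type (SD, n = 3), followed by dll4 in mutants and by dlb and dll4, which overlapped, in wild type.

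**Figure D2:**
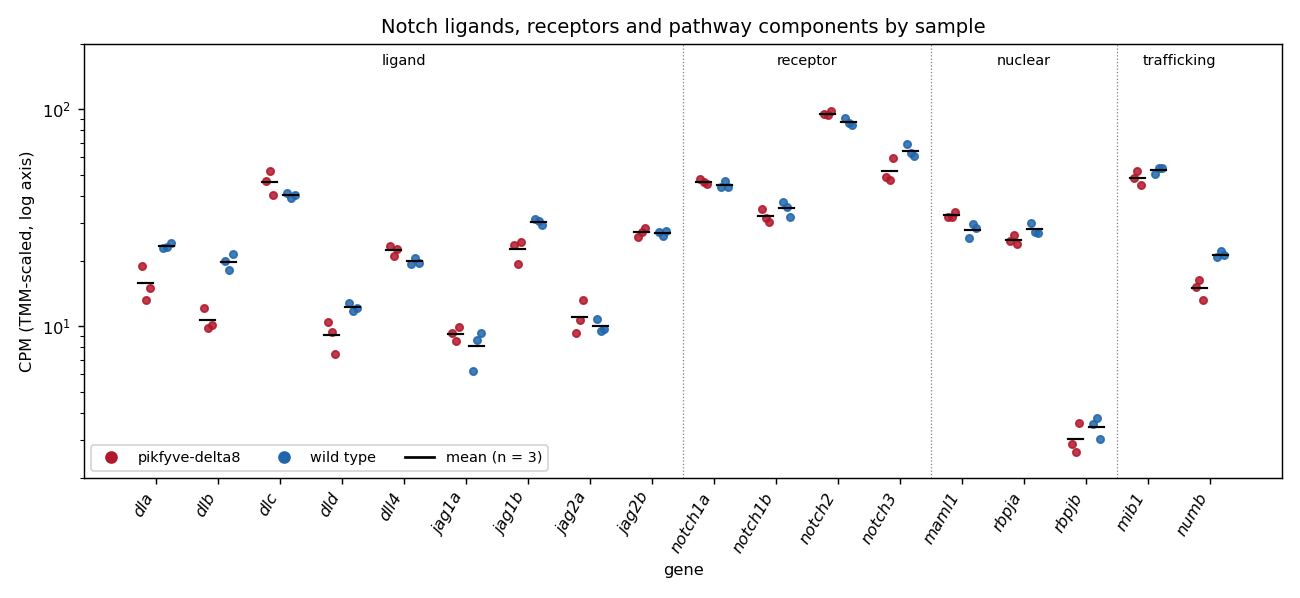
CPM on a log axis in each sample for ligand, receptor, nuclear complex and trafficking genes, with pikfyve-delta8 left of wild type for each gene and a line at the mean of 3. Mutants lie under wild type without overlap for dla, dlb, dld, jag1b, notch3, rbpja and numb, and above it for dll4, notch2 and maml1.

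Of the 4 receptor genes 1 fell (25%, near the 23% of all genes tested). The gene notch3 (Gene ID 58066), a receptor of vessel-associated mural cells and neural progenitors, had 48.8, 47.4 and 59.9 CPM in mutants and 69.3, 62.9 and 61.0 CPM in wild type. It fell by 0.31 ± 0.10 on the log2 scale (edgeR adjusted p = 0.0289), with pikfyve-delta8 replicate 3 close under the lowest wild-type sample. The call was lost without any of 5 samples: pikfyve-delta8 replicate 1 (adjusted p = 0.0763) or 2 (0.0772), or wild type replicate 1 (0.120), 2 (0.0676) or 3 (0.0519), in a range of 0.000839 to 0.120 over all alternatives. The other receptors did not pass. The mean level of notch2 was 95.6 ± 1.92 CPM in mutants and 87.5 ± 3.00 CPM in wild type, a log2 fold change of 0.13 ± 0.07 (adjusted p = 0.141). For notch1a the log2 fold change was 0.05 ± 0.07 (adjusted p = 0.575) and for notch1b -0.13 ± 0.09 (adjusted p = 0.290), which library size alone called lower (-0.27, adjusted p = 0.0371).

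The nuclear complex had no gene past the test, in edgeR, DESeq2 or limma-voom, with 1 gene, maml1, at an unadjusted p under 0.05 in edgeR. The Mastermind coactivator gene maml1 had 31.9, 31.9 and 33.7 CPM in mutants and 25.6, 29.5 and 28.5 CPM in wild type, a log2 fold change of 0.22 ± 0.09 (adjusted p = 0.0575). The mutants lay above the wild-type samples without overlap. The DNA-binding factor gene rbpja had 24.6, 26.3 and 23.9 CPM in mutants and 30.1, 27.1 and 26.8 CPM in wild type, a log2 fold change of -0.17 ± 0.09 (adjusted p = 0.153). It was called lower with library size alone (-0.31, adjusted p = 0.0186) and on the log2(FPKM + 1) scale (-0.26, adjusted p = 0.0402), settings that also lowered the median of all genes. The same held for the log2(FPKM + 0.1) scale. Its paralogue rbpjb was low, at 3.02 ± 0.487 CPM in mutants and 3.44 ± 0.387 CPM in wild type (adjusted p = 0.466).

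Among the trafficking regulators mib1, the ligase gene that is mutated in the mind bomb fish, had 48.2, 52.1 and 44.9 CPM in mutants and 50.2, 53.8 and 53.6 CPM in wild type. The groups overlapped, and the log2 fold change of -0.12 ± 0.08 did not pass (edgeR adjusted p = 0.246), although library size alone gave -0.26 (adjusted p = 0.0127). The log2(FPKM + 1) and log2(FPKM + 0.1) scales also called mib1 lower. All of these settings lowered the median of all genes too. The gene numb (Gene ID 692064), whose product is an endocytic adaptor that opposes Notch, had 15.2, 16.4 and 13.2 CPM in mutants and 20.8, 22.2 and 21.2 CPM in wild type. It fell by 0.52 ± 0.11 on the log2 scale (adjusted p = 0.0032), with the groups well apart.

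That fall in numb reads went with a change in its effective length, the mean length over the transcripts the reads were assigned to, as obtained from the deposited counts and FPKM. This length was 4167, 4467 and 3072 bases in mutants and 5229, 4955 and 5516 bases in wild type, so that every mutant had a shorter estimated mean length. Per length, numb stood at 3.95, 3.94 and 5.08 TPM in mutants and 5.00, 5.45 and 4.84 TPM in wild type, and the groups overlapped. With offsets for length its log2 fold change was -0.09 (edgeR adjusted p = 0.559), and on the log2(FPKM + 1) and log2(FPKM + 0.1) scales limma gave -0.18 and -0.22 (adjusted p = 0.201 and 0.200). The call therefore holds for reads and was lost per length. For the other lowered genes the effective length was nearly equal in both genotypes, for instance 3721 ± 3.66 bases in mutants and 3723 ± 1.71 bases in wild type for dla.

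**Figure D3:**
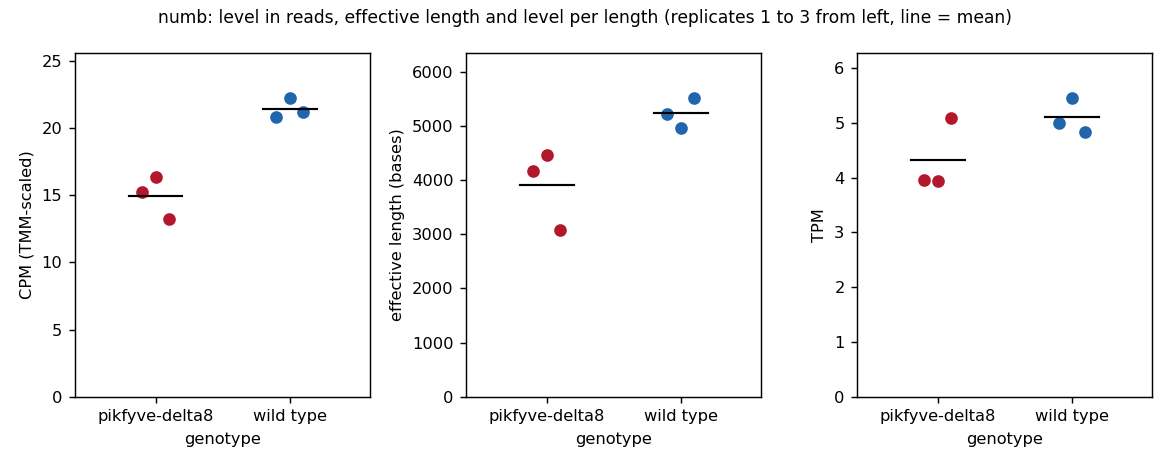
The gene numb in each sample as CPM, as effective length in bases and as TPM, with pikfyve-delta8 left of wild type and a line at the mean of 3. The genotypes are apart in the first pair of panels and overlap in TPM, where pikfyve-delta8 replicate 3 reaches 5.08.

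The her genes had the lowest median of these groups. Of 19 her genes 14 were tested and 8 of these fell (57.1%, against 23% of all genes tested). The median log2 fold change of the 14 was -0.75, against 0.0039 for all genes tested. The her4 and her15 genes are tandem copies of the Hes5 type, which Notch switches on in zebrafish neural progenitors. In the RefSeq annotation of GRCz12tu her12 and the 5 her4 copies follow each other with no other protein-coding gene between them, and so do her2, her15.1 and her15.2 on another chromosome. Of the 9 genes of these arrays 7 fell, with a median of -0.93, whereas of the other 5 tested her genes her13 fell and the median was 0.06. This grouping was made after the values were seen, and copies share reads, so their calls are not separate observations.

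The her4.3 gene (Gene ID 792198) had the lowest fold change of the 35 tested genes. It had 8.76, 4.66 and 5.27 CPM in mutants, against 19.6, 18.8 and 17.9 CPM in wild type, the highest mutant lying far under the lowest wild-type sample. Its log2 fold change was -1.59 ± 0.20 (edgeR adjusted p = 0.000221), the sole change past 2-fold among the 35 genes, where 5.77% of all genes were lowered that far. The her4.2 gene (Gene ID 100148329) had 16.4, 9.46 and 8.15 CPM in mutants and 22.6, 22.1 and 21.9 CPM in wild type, and fell by 0.97 ± 0.22 on the log2 scale (adjusted p = 0.00749). Mutant levels of her4.2 were spread widely, while the wild-type levels were almost equal. For her4.4 (Gene ID 100149066) the mutants had 8.47, 6.70 and 5.14 CPM and the wild-type samples 13.47, 11.5 and 10.1 CPM, a log2 fold change of -0.79 ± 0.19 (adjusted p = 0.0064). For her4.5 (Gene ID 30301) the levels were 7.32, 5.31 and 4.86 CPM in mutants and 9.34, 9.52 and 7.43 CPM in wild type, with the highest mutant just under the lowest wild-type sample. Its log2 fold change of -0.59 ± 0.18 (adjusted p = 0.0236) was not called without pikfyve-delta8 replicate 2 (adjusted p = 0.0553) or wild type replicate 1 (0.0876) or 2 (0.0921), in a range of 0.00557 to 0.0921 over all alternatives.

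The remaining copy, her4.1, did not pass. Its levels were 16.8, 11.1 and 13.3 CPM in mutants and 18.4, 16.3 and 12.2 CPM in wild type, a log2 fold change of -0.18 ± 0.18 (edgeR adjusted p = 0.437). Its effective length was 699 bases in both genotypes, against 1406 to 1516 bases for the other copies. Per length her4.1 held 46.0, 46.9 and 54.0% of the her4 transcripts in mutants and 37.0, 35.4 and 30.6% in wild type, while her4.3 held 11.0, 8.97 and 9.92% in mutants and 18.2, 18.8 and 20.8% in wild type. Estimates for the 5 copies were not whole numbers, apart from that of her4.1 in pikfyve-delta8 replicate 1, because reads that fit several copies were divided among them, so the level of each copy and these shares are uncertain. The sum over copies does not depend on that division. It came to 57.7, 37.3 and 36.8 CPM in mutants and 83.4, 78.2 and 69.5 CPM in wild type, and fell by 0.81 ± 0.17 on the log2 scale (adjusted p = 0.00497), with no overlap.

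Both her15 copies fell. The her15.1 gene (Gene ID 100534909) had 12.5, 9.17 and 8.84 CPM in mutants and 19.7, 23.3 and 16.3 CPM in wild type, a log2 fold change of -0.96 ± 0.17 (edgeR adjusted p = 0.00135). The her15.2 gene (Gene ID 359836) had 3.59, 2.26 and 1.92 CPM in mutants and 5.72, 5.25 and 4.29 CPM in wild type, a log2 fold change of -0.97 ± 0.25 (adjusted p = 0.00866). Neither gene overlapped between genotypes. These estimates were also divided, and the sum of both was 16.1, 11.4 and 10.8 CPM in mutants and 25.4, 28.5 and 20.6 CPM in wild type, lower by a log2 fold change of -0.96 ± 0.17 (adjusted p = 0.00157).

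The her2 gene (Gene ID 30300), the neighbour of her15, had 4.52, 1.46 and 2.60 CPM in mutants and 5.53, 5.44 and 5.38 CPM in wild type. The wild-type levels were nearly the same and the mutant levels far apart. Its log2 fold change of -0.93 ± 0.32 (edgeR adjusted p = 0.0365) was -1.41 without pikfyve-delta8 replicate 1 and -0.62 without replicate 2. The call was lost without pikfyve-delta8 replicate 2 (adjusted p = 0.0520) or 3 (0.0862) and without wild type replicate 1 (0.0976), 2 (0.0937) or 3 (0.0919), in a range of 0.00203 to 0.0976 over all alternatives. The her12 gene, the neighbour of her4, had 4.02, 1.67 and 1.71 CPM in mutants and 3.75, 4.28 and 4.68 CPM in wild type. One mutant lay within the wild-type range, and the log2 fold change of -0.78 ± 0.32 missed the threshold (adjusted p = 0.0693). Without pikfyve-delta8 replicate 1 her12 was called, at -1.32 (adjusted p = 0.00166), as it was with library size alone (0.0374), limma-voom (0.0338) and both FPKM scales (0.0213 and 0.0236).

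Outside these arrays her13 (Gene ID 550600) had 3.59, 3.71 and 3.22 CPM in mutants and 5.15, 6.09 and 6.21 CPM in wild type, and fell by 0.73 ± 0.16 on the log2 scale (edgeR adjusted p = 0.00489). Its neighbour in the RefSeq order, her8.2, had 2.44, 2.40 and 1.64 CPM in mutants and 0.762, 1.68 and 1.22 CPM in wild type, a log2 fold change of 0.82 ± 0.32 (adjusted p = 0.0579). The pair thus had opposite signs, with an overlap between genotypes for her8.2. Leaving out pikfyve-delta8 replicate 3 gave 0.97 and a call (adjusted p = 0.0279), and leaving out wild type replicate 2 gave 1.12 and a call (adjusted p = 0.0394).

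The her genes with the highest level per length, her6 and her9, which are of the Hes1 type, did not pass. The her6 gene had 59.4, 35.2 and 40.8 CPM in mutants and 50.01, 52.1 and 50.7 CPM in wild type, a log2 fold change of -0.17 ± 0.17 (edgeR adjusted p = 0.425). The wild-type levels lay inside the mutant range, and without pikfyve-delta8 replicate 1 her6 was called lower (-0.42, adjusted p = 0.00408). The her9 gene had 67.1, 48.8 and 48.8 CPM in mutants and 51.8, 53.4 and 53.3 CPM in wild type, a log2 fold change of 0.06 ± 0.12 (adjusted p = 0.729). For her8a the log2 fold change was 0.10 ± 0.17 (adjusted p = 0.631). Per length, her6 was at 46.2 ± 12.3 TPM in mutants and 58.6 ± 0.313 TPM in wild type, and her9 at 52.6 ± 8.88 TPM in mutants and 56.9 ± 0.975 TPM in wild type (SD, n = 3). The level of her15.1, next in wild type, was 13.0 ± 2.26 TPM in mutants and 28.5 ± 4.48 TPM in wild type, overlapping that of her4.1 in wild type. All 19 her genes together came to 225, 148.5 and 169 TPM in mutants and 273, 267 and 252 TPM in wild type. These TPM levels are again without TMM scaling, which bears on the difference between genotypes.

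**Figure D4:**
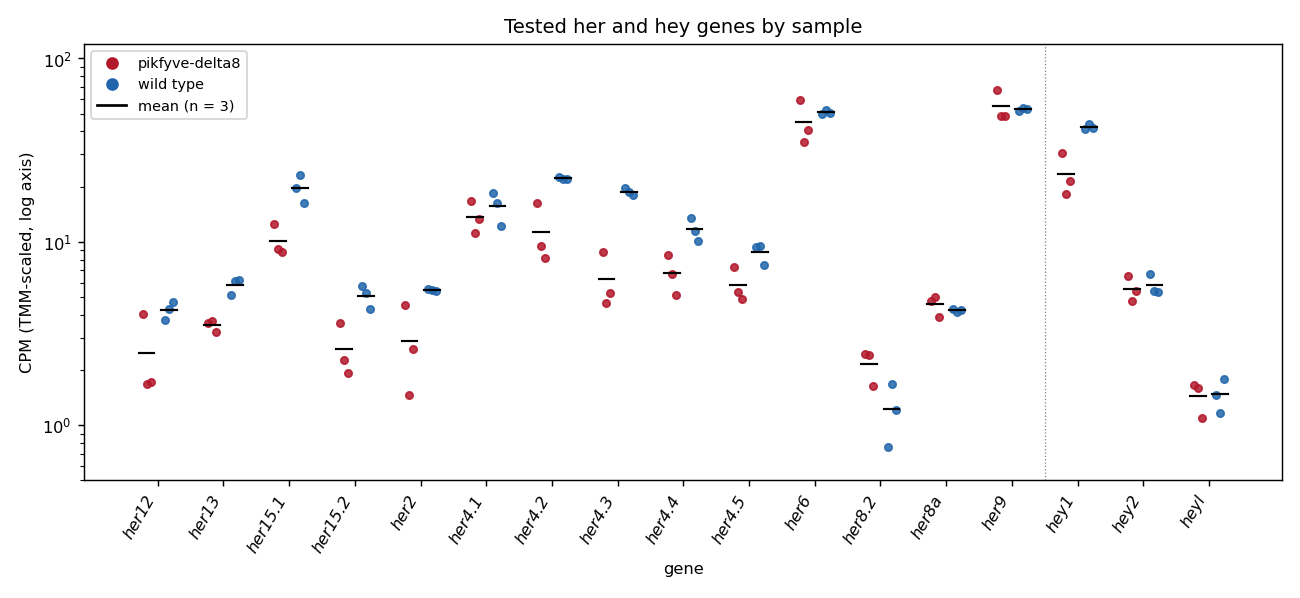
CPM on a log axis in each sample for the 14 tested her genes and 3 hey genes, with pikfyve-delta8 left of wild type and a line at the mean of 3. Mutants lie under wild type without overlap for her13, both her15 copies, her2, her4.2 to her4.5 and hey1, and in most genes pikfyve-delta8 replicate 1, the first point, is the highest mutant.

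The segmentation clock genes her1 and her7, the midbrain-hindbrain boundary genes her5 and her11, and her3 were too low to test. Per sample her1 had 0, 1 and 3 counts in mutants and 1, 0 and 0 in wild type, her7 had 1, 1 and 2 in mutants and 3, 2 and 3 in wild type, and her3 had 3, 1 and 2 in mutants and 5, 2 and 3 in wild type. No her5 read was counted in wild type and 3 in the mutants, and her11 had 9, 7 and 3 counts in mutants and 2, 4 and 2 in wild type. Apart from her11 these levels lie near a floor of 3 counts per sample, and a difference was not detectable at this depth.

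The hey genes encode related repressors that Notch switches on in vessels and heart. Of them hey1 (Gene ID 58008) fell, with 30.5, 18.1 and 21.4 CPM in mutants and 41.5, 43.9 and 42.0 CPM in wild type, a log2 fold change of -0.86 ± 0.16 (edgeR adjusted p = 0.00256). The mutants were far apart from each other and all under the wild-type samples. The artery gene hey2 was at 5.56 ± 0.910 CPM in mutants and 5.79 ± 0.766 CPM in wild type (SD, n = 3; log2 fold change -0.06 ± 0.18, edgeR adjusted p = 0.805). For heyl the log2 fold change was -0.03 ± 0.29 (adjusted p = 0.947).

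The mutant samples differed among themselves in the her and hey genes. Pikfyve-delta8 replicate 1 was the highest mutant for 15 of the 17 tested her and hey genes, where it was the highest for 32.3% of all genes tested and for 6 of the 18 other pathway genes. In the lists described below it also had the highest summed level among mutants for glycosyltransferases, related bHLH repressors, proneural genes and neural progenitors. The same held for dividing cells, presomitic mesoderm and gut genes, but not for the remaining lists. The SD of log2 CPM was larger in mutants than in wild type for 14 of the 17 (82.4%), near the 75.3% of all genes tested. Its medians were 0.304 among mutants and 0.155 among wild-type samples for these genes. For all genes tested they were 0.186 among mutants and 0.1 among wild-type samples. The wider mutant spread was thus not particular to her and hey genes. The her4 and her15 copies among the 17 share reads and are not separate observations. This description was chosen after the values were seen. Despite that spread 10 of the 15 lowered genes stayed past the threshold in each of 17 alternative analyses, namely dla, dlb, jag1b, her13, her15.1, her15.2, her4.2, her4.3, her4.4 and hey1.

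Other genes of the pathway were divided by step. Of 63 tested genes in 7 lists 13 rose and 19 fell, with a median log2 fold change of -0.14. Over all genes tested 25.1% were higher and 23% lower, with a median of 0.0039. The counts of each list below are to be read beside these shares. With TMM every called gene of the proteolytic steps was higher. Of 5 gamma-secretase genes 4 rose, with a median of 0.49: the presenilin gene psen2 was at 37.8 ± 3.10 CPM in mutants and 17.3 ± 0.127 CPM in wild type (log2 fold change 1.13 ± 0.09), and the subunit gene psenen at 32.2 ± 0.936 CPM in mutants and 22.9 ± 0.771 CPM in wild type. Of 6 genes of ADAM proteases and furin 3 rose, among them adam10a at 165 ± 11.1 CPM in mutants and 109 ± 2.77 CPM in wild type, and furina, the convertase that matures Notch, at 34.1 ± 2.50 CPM in mutants and 22.9 ± 0.706 CPM in wild type. With library size alone the gamma-secretase count was 3 and that of the proteases 2 higher and 1 lower.

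Of the genes that modify Notch or its ligands, some were lower. Of 5 glycosyltransferase genes 3 fell, including poglut1, which adds glucose to Notch repeats, at 5.39 ± 1.152 CPM in mutants and 8.42 ± 0.561 CPM in wild type, and the Fringe gene rfng, at 4.86 ± 0.474 CPM in mutants and 6.97 ± 0.236 CPM in wild type. Leaving out wild type replicate 1 ended the poglut1 call (edgeR adjusted p = 0.0521), and the call of rfng was lost without wild type replicate 3 and with DESeq2 (highest adjusted p = 0.0611). Of 9 genes of ligand ubiquitination and endocytosis 1 rose and 3 fell, or 1 and 5 with upper-quartile factors and 0 and 6 with library size alone. The gene zgc:194578, which RefSeq names epn1b, fell, at 11.6 ± 3.69 CPM in mutants and 21.5 ± 1.17 CPM in wild type (log2 fold change -0.89 ± 0.19). The epsin gene epn2 was at 85.1 ± 8.75 CPM in mutants and 65.6 ± 1.62 CPM in wild type, and the Neuralized gene neurl1b at 18.6 ± 1.10 CPM in mutants and 23.7 ± 1.51 CPM in wild type. Leaving out wild type replicate 3 ended the call of neurl1b (adjusted p = 0.0731), while that of epn2 was lost with library size alone and on the FPKM scales (highest adjusted p = 0.120).

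Of 16 tested genes listed as inhibitors and turnover factors 2 rose and 6 fell. The list also held the ligand gene dner, so the counts are not those of inhibitors and turnover factors alone. The ubiquitin ligase genes fbxw7, which marks the Notch intracellular domain for degradation, and dtx4a, a Deltex gene, were at 26.7 ± 1.53 and 9.64 ± 0.700 CPM in mutants, against 39.5 ± 2.98 and 15.2 ± 0.818 CPM in wild type. The largest change among the tested genes of this list was that of dner, which encodes a Notch ligand of neurons, named after its values were seen, at 1.49 ± 1.02 CPM in mutants and 4.89 ± 0.223 CPM in wild type (log2 fold change -1.69 ± 0.35, edgeR adjusted p = 0.00368). Over the alternatives its log2 fold change was -2.44 to -1.10. The vessel gene egfl7 was at 14.6 ± 1.82 CPM in mutants and 8.25 ± 0.556 CPM in wild type, and is counted again among the endothelial genes below. The feedback inhibitor genes nrarpa and nrarpb, both of a family induced by Notch, had opposite signs. The level of nrarpa was 52.3 ± 4.89 CPM in mutants and 40.05 ± 1.1 CPM in wild type, and that of nrarpb, named after its values were seen, was 3.604 ± 0.395 CPM in mutants and 5.66 ± 0.747 CPM in wild type. Their log2 fold changes were 0.38 ± 0.09 and -0.65 ± 0.18 (edgeR adjusted p = 0.00447 and 0.0123), the second lost without wild type replicate 1 (adjusted p = 0.0631). Of 17 nuclear coactivators and corepressors 1 rose and 5 fell, or 0 and 7 with library size alone. The one that rose, the corepressor gene spen, was at 92.6 ± 16.7 CPM in mutants and 70.8 ± 0.747 CPM in wild type, a call lost with library size alone, on the FPKM scales and without any single wild-type sample (highest adjusted p = 0.292). The Groucho corepressor gene tle2a, whose family partners with Her proteins, was at 41.5 ± 2.97 CPM in mutants and 55.4 ± 2.35 CPM in wild type.

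Related bHLH repressors outside the her and hey names were split as well, with 2 of 5 higher and 2 lower. The clock-linked genes bhlhe41 and bhlhe40 rose by log2 fold changes of 1.31 ± 0.10 and 1.05 ± 0.11, bhlhe40 being at 359.6 ± 55.7 CPM in mutants and 173 ± 4.27 CPM in wild type. The gene hes6, known for promoting neural differentiation, was at 13.1 ± 2.01 CPM in mutants and 20.6 ± 0.821 CPM in wild type (log2 fold change -0.65 ± 0.12). The low gene hes2.2 fell, at 0.761 ± 0.401 CPM in mutants and 2.21 ± 0.811 CPM in wild type, a call lost without wild type replicate 2 or 3 (highest adjusted p = 0.0590).

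**Figure D5:**
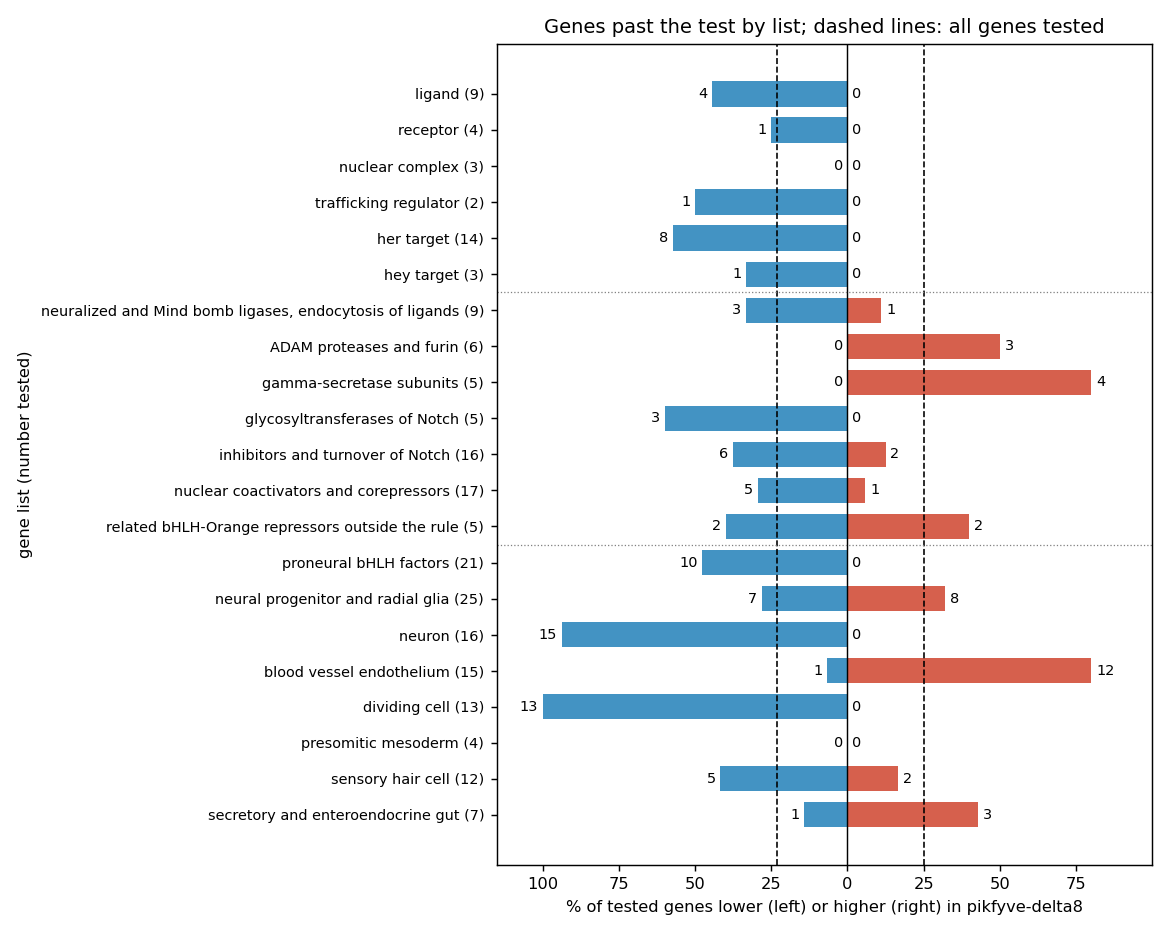
Share of the tested genes of each list that passed an adjusted p under 0.05, lower in pikfyve-delta8 to the left and higher to the right, with the number of genes at each bar; dashed lines mark all genes tested, at 23% lower and 25.1% higher. Gamma-secretase and endothelial lists extend right to 4 of 5 and 12 of 15, while her, neuron and dividing-cell lists extend left to 8 of 14, 15 of 16 and 13 of 13.

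Marker genes of several cell types that use Notch moved with the genotype, and their part in the levels above was not tested. Every listed marker found in the table had reads in at least 1 sample. Of 13 genes of dividing cells 13 fell, with summed levels of 447 to 576 CPM in mutants and 906 to 939 CPM in wild type. Of 16 neuron genes 15 fell, with sums of 1143 to 1411 CPM in mutants and 2239 to 2292 CPM in wild type. The median log2 fold change was -0.92 for dividing cells and -0.85 for neurons. A further list held proneural bHLH genes together with later neurod genes, olig genes and the zinc finger genes insm1a and insm1b. Of its 21 tested genes 10 fell, with a median of -0.43, so the count is not one of proneural factors alone. The sums were 324 to 362 CPM in mutants and 417 to 444 CPM in wild type. The neuron-precursor genes insm1a and bhlhe22 were at 23.5 ± 1.58 and 26.6 ± 1.84 CPM in mutants, against 35.0 ± 1.38 and 37.6 ± 0.735 CPM in wild type. Their relatives insm1b and bhlhe23, named after their values were seen, did not pass. Those had log2 fold changes of 0.09 ± 0.09 and -0.11 ± 0.12 (edgeR adjusted p = 0.414 and 0.444).

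Genes of neural progenitors and radial glia, cells in which her4 is known to be active, went both ways. Of 25 genes 8 rose and 7 fell, or 5 and 10 with upper-quartile factors, 5 and 12 with library size alone and 5 and 6 with DESeq2. Their summed level was 2105 to 2346 CPM in mutants and 1703 to 1709 CPM in wild type, without overlap. The glutamine synthetase genes glulb and glula together rose by about as much as that whole sum did, so the other genes added little. The levels of glulb and glula were 524 ± 21.1 and 531 ± 96.9 CPM in mutants, against 248 ± 11.2 and 293 ± 8.76 CPM in wild type. The retinal progenitor gene rx2 and the eye and brain gene pax6b were at 1.28 ± 0.0905 and 10.3 ± 1.95 CPM in mutants, against 4.51 ± 0.279 and 20.6 ± 1.76 CPM in wild type.

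Most genes of vessel endothelium were higher. Of 15 endothelial genes 12 rose and 1 fell, with a median of 0.66 and sums of 310.4 to 353 CPM in mutants and 225 to 227 CPM in wild type. The receptor genes tie1 and kdrl were at 31.5 ± 1.47 and 70.6 ± 6.58 CPM in mutants, against 18.3 ± 0.362 and 44.7 ± 1.29 CPM in wild type. The one that fell was the arterial gene efnb2a, a known Notch target in vessels, at 7.70 ± 0.876 CPM in mutants and 10.6 ± 0.526 CPM in wild type (log2 fold change -0.46 ± 0.13, edgeR adjusted p = 0.0144), a call lost without wild type replicate 2 (adjusted p = 0.0646).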

How the data were processed

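Transcript levels were measured by RNA sequencing of mRNA in 6 zebrafish samples. Per the submitters' processing notes, the tools included RSEM 1.3.1, Bowtie2 and DESeq2 1.4.5, and the build was GRCz11; no role or order is stated. Per the file headers, the authors deposited read counts, FPKM and TPM per gene and sample. The deposited counts are estimated counts, since some values are not whole. Strandedness is not stated in the labels or headers, so antisense partners cannot be told apart. Samples were grouped by title.

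Estimated counts were rounded and fitted over all genes with edgeR 4.0.16 in R 4.3.3 (filterByExpr, TMM, robust quasi-likelihood F-test on genotype, two-sided, Benjamini-Hochberg at 0.05). The SE is the log2 fold change divided by the square root of F. The deposited FPKM gave effective lengths (where FPKM was at least 0.5) and, with a pseudocount of 1 or 0.1 before log2, a limma 3.58.1 alternative over genes reaching 1 FPKM in 3 or more samples. The deposited TPM served for levels per length, was not TMM-scaled and was not tested. DESeq2 1.42.0 was an alternative. Floors cover counting error only. All pairs of replicates differed beyond counting noise, with a mean chi-square per gene of 11.4 to 18.9 between mutants and 2.32 to 2.79 between wild-type samples.

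Genes were taken by symbol (notch, her, hey, jag1, jag2 and 10 further names). Each one past the threshold was named with its values, and from other lists up to 2 genes per direction with the smallest p and no overlap. The genes and lists were chosen with earlier results of these data known. Lists are described by counts and medians, without a test. Gene order came from RefSeq's GRCz12tu annotation, another build, so no positions are given. Promoter sequences were not analysed here. The fit was tried on simulated counts. Those had few changed genes, as many up as down, so they could not test the scaling of data where 48% passed. Figures were drawn with matplotlib 3.10.9.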

Additional observations from a re-analysis of the deposited data

How the results depend on the processing

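Over the fits that kept all 6 samples the number of pathway genes called lower ran from 14 (DESeq2, length offsets) to 19 (library size alone), with 0 called higher, and leaving out 1 sample at a time gave 11 to 16 lower and 0 to 2 higher. Of all genes 16.5% were lower with DESeq2 and 31.1% with library size alone. The share lower is not given for length offsets, the replicate block or fits without 1 sample. These ranges are therefore no measure of how stable the pathway genes are beside all genes. Over all genes leaving out 1 sample gave 7767 to 10982 calls. A further requirement of a 2-fold change left 2787 of 10140 genes and 1 pathway gene, her4.3, in all and lower; that follows from the stricter rule. Of the 15 lowered genes 5 lost their call under some alternative (dld, notch3, numb, her2, her4.5), and of 20 others 7 gained one (dlc, notch1b, rbpja, mib1, her6, her8.2, her12); the cause was not tested, except that leaving out a sample leaves fewer samples. No called gene reversed. The summed her4 and her15 copies kept their calls in all alternatives run, with log2 fold changes of -1.06 to -0.71 and -1.16 to -0.86. For these sums neither length offsets nor the FPKM scales were run. Deviations from the group means of same-numbered samples correlated at -0.075, 0.050 and -0.048, and those of different-numbered samples at -0.097 to 0.143. With 3 samples per genotype these values cannot decide whether the replicate numbers pair the samples. With the replicate number as a block 9575 genes and 15 pathway genes were called, all 15 lower, and the summed copies stood at -0.84 and -0.97. Depth limits the 5 untested her genes. Of the tested genes her2, her8.2, her12 and heyl had the largest SE, 0.29 to 0.32.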

Other observations

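Sensory hair cells and the secretory cells of the gut are also set apart from their neighbours through Notch in zebrafish. Of 12 tested hair cell genes 2 rose and 5 fell, with a median log2 fold change of -0.39 and summed levels of 190.3 to 270.5 CPM in mutants and 341 to 384 CPM in wild type. The largest part of these sums was pvalb8, named after its values were seen, at 132 ± 42.1 CPM in mutants and 203 ± 25.2 CPM in wild type. It did not pass (edgeR adjusted p = 0.0588), though 7 alternatives called it, so the sums mostly do not describe the other genes. The calcium buffer gene pvalb9 and the otoferlin gene otofa, which acts in synaptic vesicle release of hair cells, were at 12.5 ± 2.33 and 12.5 ± 4.23 CPM in mutants, against 41.3 ± 3.91 and 31.2 ± 1.497 CPM in wild type. The mechanotransduction channel genes tmc1 and tmc2b were low and rose, with log2 fold changes of 1.25 ± 0.21 and 1.14 ± 0.18. The related gene tmc2a, named after its values were seen, was lower, with a log2 fold change of -0.75 ± 0.25 (edgeR adjusted p = 0.0320). That call was lost with DESeq2, with the replicate block and without any single sample other than pikfyve-delta8 replicate 3 (highest adjusted p = 0.169).

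Of 7 tested genes listed for secretory, enteroendocrine and absorptive cells of the gut 3 rose and 1 fell, with a median log2 fold change of 0.02. The other 3, agr2, pyya and gcgb, named after their values were seen, did not pass. Their log2 fold changes were -0.04 ± 0.10, 0.02 ± 0.22 and -0.09 ± 0.19 (edgeR adjusted p = 0.787, 0.944 and 0.737). The counts are thus not those of secretory cells alone. As the labels give no tissue, it is not known that these reads came from such cells. The glucagon gene gcga rose and fabp2, the fatty acid binding protein gene of enterocytes, fell: gcga was at 56.0 ± 7.32 CPM in mutants and 21.3 ± 1.16 CPM in wild type, and fabp2 at 544 ± 93.8 CPM in mutants and 924 ± 54.6 CPM in wild type. The other fatty acid binding protein gene of enterocytes in the list, fabp6, rose and was named after its values were seen, at 172 ± 45.5 CPM in mutants and 95.2 ± 14.7 CPM in wild type. The vasoactive peptide gene vipb also rose, at 15.08 ± 1.95 CPM in mutants and 7.46 ± 0.526 CPM in wild type. Of 11 presomitic mesoderm genes 4 had enough reads to be tested, and edgeR called 0, with 1, tbx6, at an unadjusted p under 0.05. DESeq2 and limma-voom also called 0.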
